A study of Rattus norvegicus with 3 samples.

Results

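The actins, tropomyosins and contractile proteins examined here were 10 genes taken by name: the actins Acta2, Actb and Actg1, the tropomyosins Tpm1, Tpm2 and Tpm4, the myosin chains Myl9 and Myh9, and the calponin family proteins Tagln and Cnn1. Probes carrying these names or an older name of the same gene were found for 9 of the 10, with 16 probes in all, and these 9 were compared with the 21775 genes tested on the arrays. Acta2 was not analysed here. RNA of rat iPS F65, an untreated line of induced pluripotent stem cells kept on a feeder layer of irradiated mouse embryonic fibroblasts, was labelled with Cy3 in 3 samples. Each sample was hybridised to its own 2-colour array against mix1, labelled with Cy5, which combined cultured rat bone marrow cells with rat primary ear fibroblasts in serum medium. The question was which genes differ between the reprogrammed cells and adult cells. The labels give 1 iPS line, no age or strain of the animals, and no statement that the 3 samples were grown apart, so the p-values cover no more than the variation among these 3 samples, which may be technical. Mix1 was 1 control sample measured 3 times, and its own biological spread is left out. No dyes were swapped, and a dye effect cannot be told apart from a difference between the cell populations.

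Actin monomers assemble into filaments, and myosin II, built of heavy chains such as Myh9 and light chains such as Myl9, pulls on these filaments to produce tension. Tropomyosins wind along actin filaments and set which motors and severing proteins may bind, while Tagln and Cnn1 bind and stabilise the bundles. In spread fibroblasts these proteins build stress fibres, and in smooth muscle specialised forms of them drive contraction. Actb and Actg1 are the cytoplasmic actins of nearly all cells, and Actb is often used as a reference in expression assays. Many contractile genes are switched on by serum response factor (Srf) with its cofactors of the myocardin family.

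The probes of related actins and tropomyosins resemble each other, so the sequences of 2 overlapping pairs are shown to let the separation between paralogs be judged. Each probe is 60 bases long and is written 5′ to 3′, and capitals mark the bases at which the members of a pair differ within the stretch that both cover.
Actb: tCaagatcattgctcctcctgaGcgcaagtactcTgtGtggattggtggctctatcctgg
Actg1: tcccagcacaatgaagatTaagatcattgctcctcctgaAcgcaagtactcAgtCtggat
Tpm1: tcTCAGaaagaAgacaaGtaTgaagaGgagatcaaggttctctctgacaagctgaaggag
Tpm2: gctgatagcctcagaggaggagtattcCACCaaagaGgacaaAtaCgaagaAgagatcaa
The Actb probe lies at chr12:12079638-12079821 on the plus strand of rn3 and the Actg1 probe at chr10:109788800-109788965 on the minus strand. Each covers more genome than its own length, so both cross a splice junction between coding exons. They share a stretch of 43 bases, of which 39 match (90.7%) and 4 differ, with a longest matching run of 20 bases. The Tpm1 probe (chr8:71359376-71359435, minus strand) and the Tpm2 probe (chr5:59998142-59998742, minus strand) share 35 bases, of which 27 match (77.1%) and 8 differ. These tropomyosin probes gave ratios of -3.78 and -7.42 and are not the brightest of their genes. The values of -4.67 for Tpm1 and -8.96 for Tpm2 below come from other probes, which are not printed. How much of a signal came from the paralog was not tested. Only probes of actins and of tropomyosins were compared in this way, so likeness to the paralogs of Myl9 and Tagln was not checked. The difference in response between Actb and Actg1 below was measured on probes that differ as shown.
Tagln and Cnn1, the markers of the contractile smooth muscle state, were each measured by a single probe, and their sequences are given because every value of these genes rests on them.
Tagln: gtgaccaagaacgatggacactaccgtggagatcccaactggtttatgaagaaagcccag
Cnn1: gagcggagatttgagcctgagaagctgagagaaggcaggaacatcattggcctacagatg
The Tagln probe lies at chr8:48911502-48911882 on the minus strand and crosses a splice junction, and the Cnn1 probe lies at chr8:21219991-21220050 on the plus strand (rn3).

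All 9 measured members were lower in iPS F65 than in mix1, and none was higher. Among all genes tested, 24.5% were lower, 30.9% were higher and 55.4% were one or the other (limma, adjusted p under 0.05 and at least 2-fold). The median log2 ratio of iPS F65 over mix1 was -4.67 over the 9 members, against 0.25 over all genes, and putting Cnn1 at its bound leaves the members' median in place. The members ranged from -9.27 for Myl9, the 35th lowest of the 21775 genes, to -2.11 for Actg1, the 3259th lowest. With spots of an uneven local background left out, Myl9 stood at -6.37. All 16 probes had the same sign on each of the 3 arrays, and the largest adjusted p of any of them was 0.000273 (limma). For 8 of the 9 members the signal of both channels was well above background on each array. Cnn1 passed the filter on dim probes only through mix1.

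**Figure D1:**
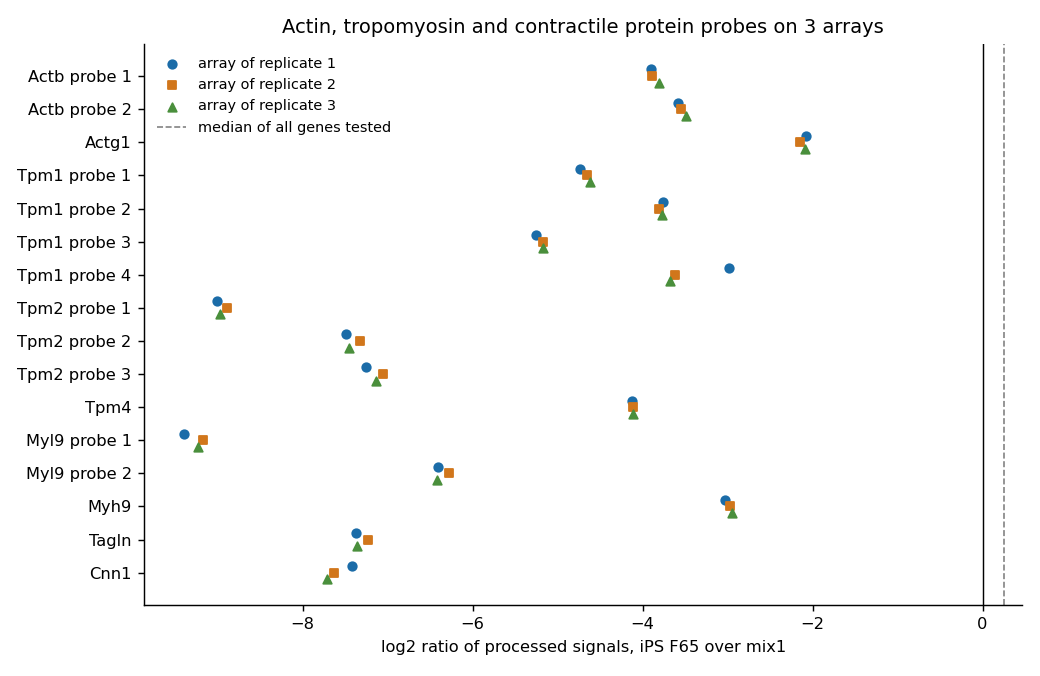
Log2 ratio of iPS F65 over mix1 (x axis) for each of the 16 probes of the 9 measured genes, 1 point per array, with a dashed line at the median of all genes tested, 0.25. All points lie left of 0, and the array of replicate 1 stands apart for the fourth Tpm1 probe, at -2.99 against -3.62 and -3.68.

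The scale of these ratios depends on the dye normalization. With limma's normexp background correction and loess dye normalization in place of the scanner's processed signals, the median of all genes moved by -0.33 to -0.08, and the members ran from -9.40 for Myl9 to -2.44 for Actg1. Of all called genes, 55.8% were higher as reported, 41.2% with that normalization and 46.3% with each array's median set to 0. All 9 members were called lower under each of these scalings. Taken relative to the median of all genes, the reported ratios were -9.52 for Myl9 and -2.36 for Actg1. The arrays were similar in quality, with 57.1% to 61.2% of gene spots well above background in the iPS F65 channel and 58.3% to 62.1% in the mix1 channel. No gene spot was saturated.

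The pluripotent cell and fibroblast markers followed the labels of the channels. No marker list was made for bone marrow cells as such. All 6 pluripotent cell markers (Pou5f1, Sox2, Nr0b1, Dnmt3b, Tdh, Epcam) were higher in iPS F65, with a median log2 ratio of 3.84, and Pou5f1 and Epcam were not well above background in mix1 on any array. All 10 fibroblast markers (Col1a1, Col1a2, Col3a1, Dcn, Lum, Thy1, Pdgfra, Fn1, Vim, Postn) were lower in iPS F65, with a median of -8.01. Their summed signal was 18849 to 24589 per array in iPS F65, against 2010970 to 2587880 in mix1, and Thy1 and Postn were not well above background in iPS F65 on any array. Of the 7 macrophage markers, 6 were lower (Cd68, Lyz2, Ctss, Aif1, Csf1r, Cd14) with a list median of -6.30 and a summed signal of 2734 to 3478 in iPS F65, against 172309 to 203824 in mix1. Ptprc, at -2.26 ± 1.64 (SD, n = 3), was not called at its brightest probe (limma adjusted p = 0.0547). That probe had ratios of -2.94, -0.38 and -3.45 on the 3 arrays. The 3 Ptprc probes ran from -3.35 to -2.26, and 2 of them were called lower. Of the 5 measured markers of pericytes and vascular smooth muscle, Cspg4 (-6.49), Pdgfrb (-7.07) and Mcam (-1.57) were lower. Notch3 (-0.18) and Myh11 at its brightest probe (-0.28) were not called, while a dimmer Myh11 probe was called lower at -6.37. The summed signal of this list was 34516 to 44634 in iPS F65, against 109076 to 130548 in mix1. Most of the iPS F65 sum came from Notch3, with a mean signal of 39323.5 in iPS F65 and 44554.9 in mix1. Rgs5 did not pass the filter on dim probes. Fibroblast markers, most macrophage markers and 3 of the 5 measured pericyte and vascular smooth muscle markers were lower, as the members were. The pluripotent cell markers were higher. Among all genes tested, 24.5% were lower and 30.9% were higher. The part of any of these lists in the members' ratios was not tested. In such bulk RNA, fewer cells of a type and less RNA per cell cannot be told apart. The part of mouse feeder cell RNA in the iPS F65 channel was not tested either.

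The 2 cytoplasmic actins, which form the bulk filament network of non-muscle cells, were both bright in both cell populations and differed in the size of their decrease. The brightest Actb probe had processed signals of 24889, 30622 and 31461 in iPS F65, against 373313, 455567 and 439614 in mix1. All iPS F65 values lay below all mix1 values, and the log2 ratios were -3.91, -3.90 and -3.80, with a mean of -3.87 ± 0.06 (SD, n = 3), which is 14.6-fold lower (limma adjusted p = 6.25e-06). The second Actb probe, at chr12:12079523-12079582, was printed on the array many times over and allows a look at technical error within an array. Its 8, 9 and 9 usable spots per array ranged from -3.69 to -3.44 on the array of replicate 1, from -3.61 to -3.43 on that of replicate 2 and from -3.62 to -3.32 on that of replicate 3. The SD between spots of 1 array was 0.0804, 0.0598 and 0.0861, the SD between arrays of the spot means was 0.0459, and the mean ratio of this probe was -3.54 (11.6-fold lower). The 2 Actb probes thus differed by 0.33. The SD between spots is that of single spots and the SD between arrays is that of means over 8 or 9 spots. These are unlike measures, so they do not show whether the arrays varied beyond spot error. With spots of an uneven local background left out, Actb was represented by the second probe and stood at -3.56 instead of -3.87.

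Actg1, the gamma cytoplasmic actin, had signals of 55289, 68664 and 65603 in iPS F65, against 233884, 304388 and 278961 in mix1. The 2 sets of signals did not overlap, and the ratios of -2.08, -2.15 and -2.09 gave a mean of -2.11 ± 0.04 (SD, n = 3), which is 4.30-fold lower (limma adjusted p = 7.95e-06). Actg1 was the least lowered of the 9 members. On each array Actb was further down than Actg1, by log2 differences of -1.83, -1.75 and -1.72, with a mean of -1.76 ± 0.06 (SD, n = 3). The ranges of the 2 genes over arrays did not overlap. The smooth muscle actin Actg2, also listed among the smooth muscle genes below, had a ratio of -3.26 ± 0.03, and the cardiac actin Actc1 one of -0.04 ± 0.01 (SD, n = 3, not called, limma adjusted p = 0.0654). The Actc1 probe overlaps an Actb probe and the Actg2 probe by 43 bases each, with 36 matching bases in both cases, and its ratio stood apart from theirs.

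**Figure D2:**
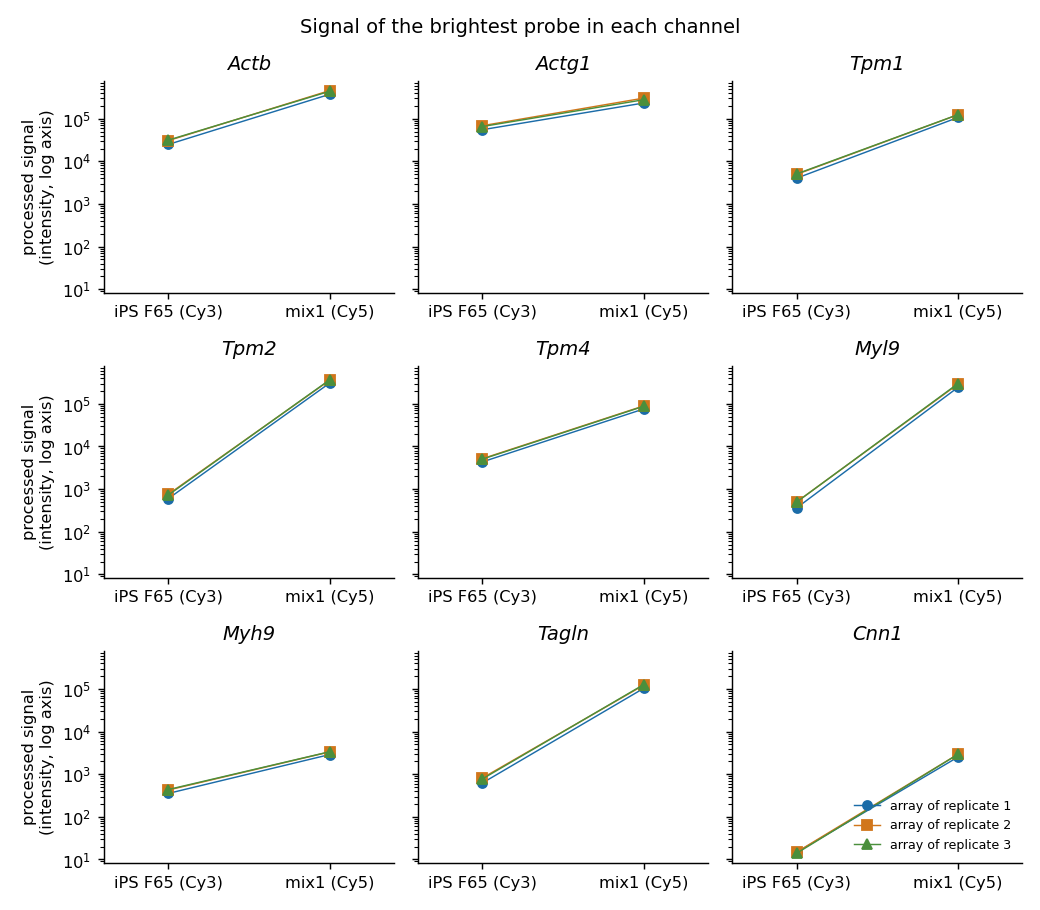
Processed signal of the brightest probe of each of the 9 genes (log axis) in iPS F65 (left, Cy3) and mix1 (right, Cy5), with a line joining the 2 channels of an array. Every line falls toward iPS F65, least for Actg1 and most for Myl9, and the 3 arrays run nearly parallel.

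The tropomyosins divided into 1 gene with an extreme difference and 2 with moderate ones. Tpm2, the beta tropomyosin of muscle and stress fibres, had signals of 596.2, 752.5 and 723.5 in iPS F65, against 305855, 356730 and 364180 in mix1, at the probe chr5:59994317-59994376. Its ratios of -9.00, -8.89 and -8.98 gave a mean of -8.96 ± 0.06 (SD, n = 3), which is 497-fold lower (limma adjusted p = 5.31e-06) and the 46th lowest of all genes. The other Tpm2 probes gave -7.42 (172-fold) and -7.15 (142-fold), so the 3 probes spanned 1.81 on the log2 scale and all lay below -7. With spots of an uneven local background left out, Tpm2 was represented by the -7.42. Tpm2 was found through its RefSeq accession, because the array carries it under an older provisional name.

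Tpm1, the alpha tropomyosin, was measured by 4 probes on the minus strand of chromosome 8. Its brightest probe (chr8:71350723-71350782) had signals of 4027, 4954 and 5072 in iPS F65, against 106942, 124274 and 124549 in mix1. The ratios of -4.73, -4.65 and -4.62 averaged -4.67 ± 0.06 (SD, n = 3), which is 25.4-fold lower (limma adjusted p = 5.84e-06). Tpm1 makes many proteins by alternative promoters and exons, and the array annotation gives this probe to transcript variant 2 and the others to variant 6. These gave -3.78 ± 0.03, -5.20 ± 0.05 and -3.43 ± 0.38 (SD, n = 3). The last of them, at chr8:71355987-71356043, had signals of 653.1, 456.8 and 435.9 in iPS F65, with the array of replicate 1 higher than the others, against 5180, 5631 and 5578 in mix1. The 4 probes differed by up to 1.77, more than their arrays spread, and each was called lower. With spots of an uneven local background left out, Tpm1 was represented by the probe at -3.78 and stood above Tpm4, which is then the middle member at -4.12.

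Tpm4, a tropomyosin of non-muscle cells, had signals of 4352, 5172 and 5054 in iPS F65, against 76014, 89507 and 87779 in mix1 (chr16:18108913-18108972, minus strand). The ratios were -4.13, -4.11 and -4.12, a mean of -4.12 ± 0.01 (SD, n = 3), which is 17.4-fold lower (limma adjusted p = 5.31e-06) and the tightest agreement between arrays of any member probe. On each array the ratio of Tpm2 minus that of Tpm1 was between -4.36 and -4.24, and that of Tpm2 minus Tpm4 between -4.88 and -4.78, at their brightest probes. The ratio of Tpm1 minus that of Tpm4 was between -0.60 and -0.50, a distance smaller than that between the probes of Tpm1 itself. Tpm3, the remaining tropomyosin gene, is described with the non-muscle isoforms.

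Of the 2 myosin chains, the light chain differed far more than the heavy chain. Myl9, the regulatory light chain of smooth muscle and stress fibre myosin, had signals of 362.0, 499.3 and 495.9 in iPS F65, against 243545, 289278 and 298740 in mix1 (chr3:147099683-147099742, plus strand). Its ratios of -9.39, -9.18 and -9.23 averaged -9.27 ± 0.11 (SD, n = 3), which is 617-fold lower (limma adjusted p = 5.63e-06) and the lowest value among the members. The second Myl9 probe (chr3:147098658-147099141), with 738.8, 906.8 and 854.2 in iPS F65 against 62655, 70485 and 72933 in mix1, gave -6.37 ± 0.08 (SD, n = 3), which is 82.6-fold lower (limma adjusted p = 5.67e-06). The 2 probes lay 2.90 apart, the widest gap within a member, and both were called lower. Spots of the brighter probe carry the scanner's flag for an uneven local background, and with such spots left out Myl9 stood at -6.37 and was no longer the lowest member, Tpm2 being at -7.42 and Tagln at -7.32.

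Myh9, the heavy chain of non-muscle myosin IIA, had signals of 354.6, 425.5 and 437.4 in iPS F65, against 2892, 3340 and 3366 in mix1 (chr7:115715932-115716816, minus strand, crossing a splice junction). The ratios of -3.03, -2.97 and -2.94 averaged -2.98 ± 0.04 (SD, n = 3), which is 7.90-fold lower (limma adjusted p = 6.47e-06). The ratio of Myl9 minus that of Myh9 was -6.29 ± 0.08 (SD, n = 3) at the brightest probes. Myh10, the heavy chain of non-muscle myosin IIB, had 4 probes with ratios from -1.16 to -0.39, of which the brightest, at -1.16 ± 0.01 (SD, n = 3), was the 1 called lower.

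Tagln, the actin-binding protein transgelin of smooth muscle, had signals of 624.2, 817.2 and 776.8 in iPS F65, against 103819, 123277 and 127158 in mix1. The groups did not overlap, and the ratios of -7.38, -7.24 and -7.35 averaged -7.32 ± 0.08 (SD, n = 3), which is 160-fold lower (limma adjusted p = 5.48e-06). Cnn1, the calponin of differentiated smooth muscle, had signals of 14.7, 14.9 and 14.0 in iPS F65, not well above background on any array, against 2527, 2947 and 2933 in mix1. Only a bound can be given, and by processed signals Cnn1 was at least 42.6-fold lower in iPS F65. Its measured ratio was -7.59 ± 0.15 (SD, n = 3, limma adjusted p = 7.14e-06). With normexp and loess the ratio was -5.39 (41.9-fold), just under that bound. A bound of this kind sets the mean mix1 level against, per array, the higher of the lowest iPS F65 signal above background and the probe's own. It holds for the processed signals only, and a ratio with normexp and loess can be smaller in size.

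**Figure D3:**
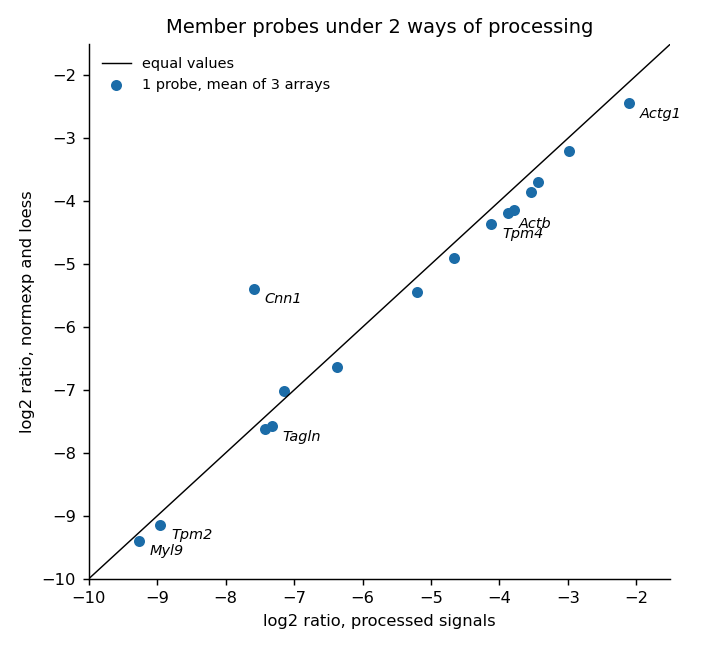
Mean log2 ratio of iPS F65 over mix1 of each of the 16 member probes from the processed signals (x axis) and after normexp background correction and loess (y axis), with a line of equal values. Most probes lie slightly below the line, with Actg1 at -2.11 and -2.44, and Cnn1 lies far above it, at -7.59 and -5.39.

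From the lowest ratio up, the order of the 8 members with signal in both channels was Myl9, Tpm2, Tagln, Tpm1, Tpm4, Actb, Myh9 and Actg1, and no neighbours had overlapping ranges over the 3 arrays. Cnn1, with only a bound in iPS F65, has no settled place among Myl9, Tpm2 and Tagln. The ratio of Myl9 minus that of Tpm2 was -0.31 ± 0.07, and that of Tpm4 minus Actb was -0.25 ± 0.05 (SD, n = 3). The order holds for the brightest probe of each gene, and other probes of Tpm1, Tpm2 and Myl9 give another order. Leaving out spots of an uneven local background changes it too.

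The genes most like Tagln and Myl9 were taken by the root mean square difference of the 3 log2 ratios, over 9579 genes with a RefSeq symbol and signal above background in both channels. The genes nearest to Tagln were Pcolce, an enhancer of procollagen processing (difference 0.0148), Lyz2, the lysozyme of macrophages (0.0405), and Gsn, the actin-severing protein gelsolin (0.0438). Their ratios were -7.33, -7.30 and -7.29. The genes nearest to Myl9 were Ccn5, a matricellular protein (0.0914), Timp2, an inhibitor of metalloproteinases (0.117), and Hsd11b1, an enzyme of glucocorticoid activation (0.159), with ratios of -9.18, -9.16 and -9.13. The points share their arrays and their mix1 sample, and likeness here is of the size of the ratio over only 3 arrays.

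Partners of the members in smooth muscle contraction were mostly lower. Of 13 measured genes of a list of 14, 10 were lower and 0 higher, with a median ratio of -3.18, or -3.05 once the bound replaces the ratio of a dim gene. Among all genes 24.5% were lower and 30.9% higher, against 76.9% lower in this list. The lowest were Smtn, which encodes the filament-associated smoothelin (-4.93 ± 0.01, 30.4-fold), the LIM protein gene Csrp1 (-4.45 ± 0.01, 21.9-fold) and Ppp1r14a, an inhibitor of myosin phosphatase (-3.92 ± 0.06, 15.1-fold; SD, n = 3). Cald1, an actin-binding regulator of myosin, was at -3.64. Mylk, the kinase that phosphorylates Myl9, was not well above background in iPS F65 and at least 8.25-fold lower by processed signals. With normexp and loess the Mylk ratio was -2.49, smaller in size than its log2 bound of 3.05. The smooth muscle heavy chain Myh11 was not called at its brightest probe (-0.28 ± 0.09), while a dimmer probe gave -6.37.

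Non-muscle isoforms of the same protein families showed both directions. Of 7 measured genes of a list of 10, 4 were lower and 1 higher, with a median of -1.16. Among all genes 24.5% were lower and 30.9% higher, against 57.1% lower in this list. The transgelin paralog Tagln2 was lower by a ratio of -5.41 ± 0.04 (42.6-fold), the essential light chain Myl6 by -3.66 ± 0.03 (12.6-fold) and the regulatory light chain Myl12b by -1.89 ± 0.05 (3.70-fold; SD, n = 3). Tagln3, the transgelin paralog of neurons, was at least 1.81-fold higher in iPS F65 and not well above background in mix1, a call that was lost with normexp and loess at a ratio of 0.60. The calponin paralog Cnn3 (-0.51) and Tpm3 (-0.49) were not called, and the 6 probes of Tpm3 ran from -1.12 to 1.78 with calls in both directions.

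Proteins that bundle actin and tie stress fibres to adhesions were mostly lower. Of 20 measured genes of a list of 21, 17 were lower and 0 higher, with a median of -2.60. Among all genes 24.5% were lower and 30.9% higher, against 85% lower in this list. The lowest were the filamin Flnc (-6.98 ± 0.14), Lima1, which bundles and stabilises filaments (-5.42 ± 0.06, 42.7-fold), and Tgfb1i1, the adhesion protein Hic-5 (-4.17 ± 0.13, 18.0-fold; SD, n = 3). Flnc was well above background in iPS F65 on 1 of the 3 arrays, so no fold is given, and its ratio was -6.17 with normexp and loess. The crosslinker Actn1 (-3.33), the filamin Flna (-3.68), vinculin (Vcl, -2.61) and talin (Tln1, -2.72) were also lower, while Pxn (-0.95), Fermt2 (-0.86) and Tln2 (0.54) were not called. Pxn (-1.37 with normexp and loess) and Fermt2 (-1.27) were called lower with that normalization and with array medians set to 0, where 19 genes of the list were lower.

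Genes of actin filament assembly and turnover mostly stayed within the 2-fold limit. Of 27 measured genes of a list of 30, 10 were lower, 1 was higher and 16 were neither, with a median of -0.59. Among all genes 24.5% were lower and 30.9% higher, against 37.0% lower in this list. The lowest were Gsn (-7.29 ± 0.03, 157-fold), the capping protein Capg (-5.85 ± 0.05, 57.8-fold) and Coro1a, the coronin of blood cells (-5.23 ± 0.03, 37.4-fold; SD, n = 3). The monomer-binding thymosin Tmsb4x was lower at -4.53, as were the Arp2/3 subunits Arpc1b (-3.18) and Arpc3 (-1.13), while the subunits Arpc1a (-0.18), Arpc2 (-0.27), Arpc4 (-0.48), Arpc5 (-0.39), Actr2 (-0.59) and Actr3 (-0.64) were not called. Tmod2, a tropomodulin of neurons that caps the pointed end of actin filaments, was at least 5.90-fold higher in iPS F65 by processed signals. It was not well above background in mix1, and its log2 ratio of 1.84 with normexp and loess was smaller than the bound of 2.56.

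Among regulators of contraction and of contractile gene transcription, 7 of the 13 measured genes of a list of 14 were lower and 1 was higher, with a median of -1.01. Among all genes 24.5% were lower and 30.9% higher, against 53.8% lower in this list. The lowest with signal in both channels were the GTPase gene Rhoc (-2.36 ± 0.04, 5.12-fold) and Mrtfa, an actin-sensing cofactor of Srf (-2.06 ± 0.04, 4.16-fold; SD, n = 3). Myocd, the cofactor named myocardin, was at least 2.15-fold lower and not well above background in iPS F65. Ppp1cb, the catalytic subunit of myosin phosphatase, was higher by 2.82-fold, with ratios of 1.48, 1.51 and 1.51 on the 3 arrays. Srf itself was not called at its brightest probe (-0.93), but was called lower with normexp and loess (-1.21) and with array medians set to 0, and its 3 probes ran from -4.69 to 0.25.

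Genes of the striated muscle sarcomere were mostly dim, and 14 of 22 could be tested. Of these, 8 were lower and 2 higher, their median being -1.25, or -0.82 once the bounds replace the ratios of dim genes. Among all genes 24.5% were lower and 30.9% higher, against 57.1% lower in this list. The troponins Tnnt2 and Tnnt3 were at least 9.63-fold and 8.17-fold lower and not well above background in iPS F65, and the atrial light chain Myl4 was lower at -3.18 ± 0.06 (SD, n = 3), with 1 of 3 iPS F65 arrays well above background. The cardiac heavy chains Myh6 and Myh7 were at least 5.43-fold and 1.56-fold higher and not well above background in mix1. These bounds hold for the processed signals. The call of Myh7 was lost with normexp and loess, at a ratio of 0.94. The same processing gave Tnnt2 -3.13 and Myh6 1.69, smaller in size than their log2 bounds of 3.27 and 2.44. With only probes above background in both channels, 1 gene of this list was lower and 0 were higher.

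**Figure D4:**
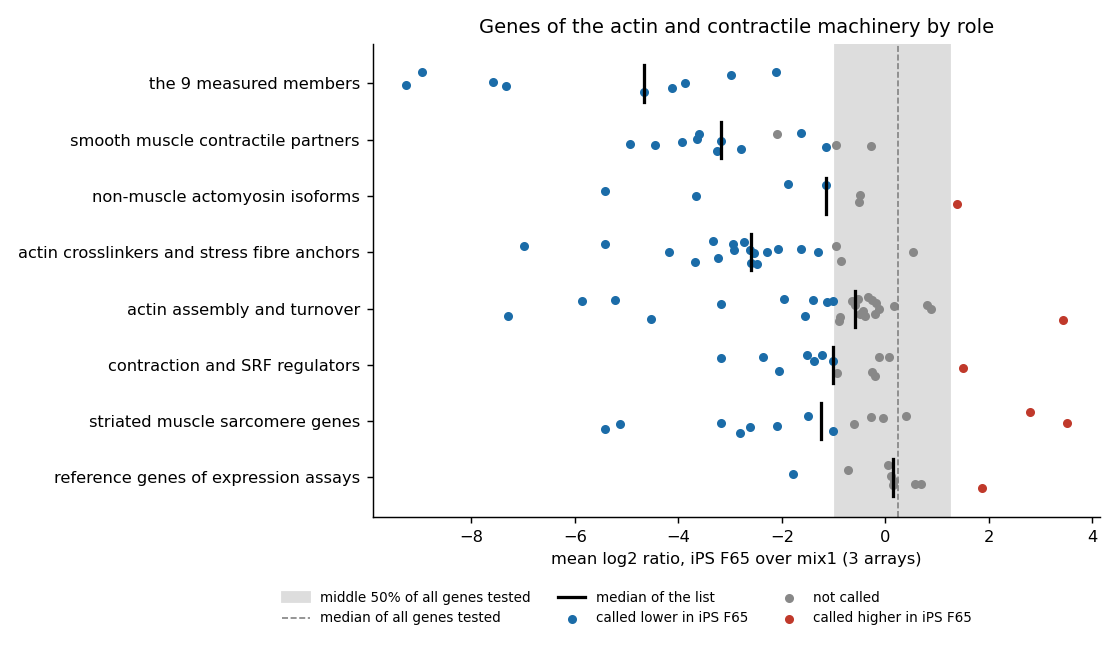
Mean log2 ratio of iPS F65 over mix1 (x axis) of each measured gene in the 9 members and in lists of related genes, coloured by call, with the list median as a black bar and the middle range of all genes (-0.97 to 1.25) shaded. The members' median lies at -4.67, the crosslinkers' at -2.60 and that of filament assembly at -0.59.

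Because Actb serves as a reference gene, it was set beside 9 other genes used that way. Of these, 7 were called in neither direction, with ratios between -0.73 for Gapdh and 0.68 for Sdha, and the list's median of 0.15 was near the 0.25 of all genes. Among all genes tested, 9721 of 21775 were called in neither direction. B2m (-1.79 ± 0.02, 3.46-fold) was lower in iPS F65, and Tbp (1.86 ± 0.01, 3.64-fold) was higher (SD, n = 3). Hprt1 (0.18), Ppia (0.12), Ywhaz (0.15), Pgk1 (0.05) and Rplp0 (0.57) were not called. Actb at -3.87 and Actg1 at -2.11 were below every one of the 9 on each array. With normexp and loess Gapdh was called lower, at -1.12.

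**Figure D5:**
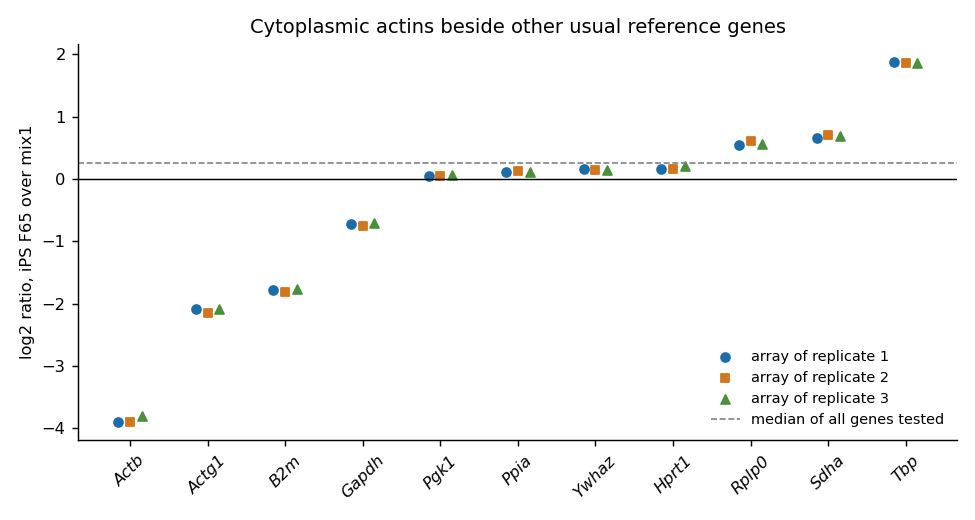
Log2 ratio of iPS F65 over mix1 on each array (y axis) for Actb, Actg1 and 9 other usual reference genes (x axis, ordered by ratio), with a dashed line at the median of all genes tested, 0.25. Actb lies lowest at -3.87, Tbp highest at 1.86, and 7 genes lie between -0.73 and 0.68.

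The members were lower together, so the bases before their starts were searched for the CArG box, the binding motif of Srf, which reads the same on both strands. RefSeq windows (GRCr8) from 250 bases before to 50 bases after the start were at hand for 6 of the 9 measured members, as 7 windows. No window was at hand for Actb, Tagln or Myl9, so the motif was not searched there. The motif was found in 1 of the 7, that of Actg1, and in 548 of 33469 windows of all genes (1.64%). The Actg1 motif begins 90 bases before the start. The 250 bases before the Actg1 start (chr10:106120952-106121201, minus strand, GRCr8) are shown because they hold the motif, which is in capitals.
Actg1: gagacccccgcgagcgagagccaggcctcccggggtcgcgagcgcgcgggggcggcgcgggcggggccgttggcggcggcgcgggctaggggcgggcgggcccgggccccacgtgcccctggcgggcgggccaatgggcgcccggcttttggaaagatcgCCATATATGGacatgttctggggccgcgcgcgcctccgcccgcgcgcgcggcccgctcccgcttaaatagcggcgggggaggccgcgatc
A match is a description of these letters and not a binding site, and a window without one says only that the letters are not in it.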

How the data were processed

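Per the labels' protocols, RNA of 3 iPS F65 samples (Cy3) and of mix1 (Cy5) was hybridised to 3 2-colour arrays. Per the file headers, Agilent Feature Extraction 9.5.3.1 made the deposited intensity values, and probe positions are those of rn3. Its processed signals had been background-subtracted and dye-normalized (linear and LOWESS). The deposited log2 values equalled log2 of green over red processed signals for 41012 probes within 3.11e-06, without further centring; their medians were 0.00, -0.01 and -0.06.

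Spots flagged as outliers (204 to 213 per array) were left out and spots of a probe averaged. A probe was tested if well above background on all 3 arrays in either channel (25801 of 41012 probes), and the brightest probe stood for a gene. Ratios were compared with 0 in limma 3.58.1 (R 4.3.3; lmFit, eBayes), with Benjamini-Hochberg adjustment over all tested probes. Calls needed an adjusted p under 0.05 and a log2 ratio of 1 or more in size. Bounds used channel levels after Aquantile normalization. The scripts were tested on simulated data. Probes were named through RefSeq by accession (10735), gene number (1222), symbol (5566) or older name (3729), and the others kept the file's name. Alternatives were normexp (offset 50, uneven backgrounds replaced by the array median) with loess, array medians set to 0, the deposited log2 values, other filters on dim probes, means over probes, spots with uneven backgrounds left out, and each replicate left out. The 3 arrays lay on 1 slide with 1 scan time, so no batch could be tested. The number of arrays, 3, limits the precision. Some genes of the lists are not reported here. The members and lists were chosen with earlier results of these data known. Besides all member probes, the text names in each list the 3 lowest and 2 highest called genes, all marker and reference genes, and the 3 genes nearest to Tagln and Myl9; other list genes were named after their values were seen.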

Additional observations from a re-analysis of the deposited data

How the results depend on the processing

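All 9 members were called lower under each alternative except the filter on both channels, which removes Cnn1 and left 8. The lowest member ratio, -9.27 as reported, was -9.31 to -9.21 with 1 replicate left out and -7.84 with the mean over probes. With spots of uneven background left out it was -7.59, a value of Cnn1, which has only a bound. The brightest probes of Myl9, Tpm2, Tpm1 and Actb and the single probe of Actg1 have such spots. Actb was then represented by its second probe, at -3.56. Actg1 then stood at -2.08, the same value as without replicate 2. Without replicates 1, 2 and 3 in turn, 5265 to 5309 of all genes were lower and 6680 to 6709 higher. Against 6723 genes higher and 5331 lower as reported, normexp with loess gave 3977 higher and 5683 lower, and array medians set to 0 gave 5328 and 6179, so the larger share of calls was then lower. The filter on both channels gave 3231 lower among fewer genes tested. With normexp and loess, 0 non-muscle actomyosin genes and 1 sarcomere gene were higher, and 2 reference genes were lower, against 1 as reported. With the filter on both channels, 0 non-muscle actomyosin, 0 assembly and 0 sarcomere genes were higher and 1 sarcomere gene was lower, dim genes being removed. Assembly genes higher numbered 2 with no filter and 2 with the mean over probes. Fibroblast markers lower numbered 5 with uneven spots left out, the others not being tested there. Ptprc was called lower with normexp and loess, with array medians set to 0, with the mean over probes and without replicate 2 (-3.20). With normexp and loess, and with array medians set to 0, 12 smooth muscle genes, 19 crosslinkers and 8 regulators of contraction were lower, against 10, 17 and 7 as reported. With the mean over probes, 3 non-muscle actomyosin genes were lower, against 4. Under the same setting Myh11 was called lower at -3.33, and 4 pericyte and vascular smooth muscle markers were lower, against 3 as reported. No named gene that was called changed its sign in these alternatives, while the balance of all calls turned as given above. Each ratio was taken within an array, so the channels of an array were compared as a pair. Mix1 was the same sample on each array, so this is no pairing of separate biological samples. Signals near background, as for Cnn1 in iPS F65, give only bounds.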

Other observations

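Over all lists, those of marker and reference genes included, 37 genes other than the members had several tested probes. Of these, 9 had some probes called and others not, and 1, Tpm3, had probes called in opposite directions. Myh11 had probes at -0.28 and -6.37, Srf at values from -4.69 to 0.25, Pdlim3 at -2.93 and -0.94, and Dstn, which severs actin filaments, at -1.54 and -0.90. The 4 probes of Myh10 ran from -1.16 to -0.39.

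Lmod1, which nucleates actin filaments in smooth muscle, had ratios of -3.17 and -2.75 on the arrays of replicates 1 and 2 and -0.36 on that of replicate 3, with a mean of -2.09 ± 1.52 (SD, n = 3). It was not called (limma adjusted p = 0.0539), but was called lower with normexp and loess (-1.17) and with array medians set to 0. Without replicate 3, 11 genes of the smooth muscle list were lower, against 10 as reported.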
